A study of Mus musculus with 10 samples.

Results

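Enamel is built by the enamel organ, in which ameloblasts secrete and then mature the enamel matrix and the stratum intermedium lies directly behind them. The difference in transcript level between these layers was followed in 5 pairs of captures, 2 wild type (WT) and 3 claudin-10 knockout (KO), to ask whether it was smaller or larger without claudin-10 and for which genes. Claudin-10 forms ion-selective paracellular channels in tight junctions. Each library name carries a prefix, WT10 or WT5 for WT and KO1, KO3 or KO9 for KO, and both layers of 1 prefix were treated as 1 mouse. The layer difference of a gene in a prefix was log2(ameloblast value + 1) minus log2(stratum intermedium value + 1). Both tables were normalized separately, so higher in a layer describes this value and was not tested against 0. The difference was taken for the 15567 genes with a mean of at least 10 in both tables, of 17305 genes listed in either. Every gene listed in a table had at least 10 in at least 3 of its 5 libraries. The 3 KO libraries alone could meet this, and the 2 WT libraries alone could not.

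Both layers were laser-captured from frozen hemi-mandible sections of mice, and polyA RNA was sequenced in 10 libraries. The groups carry no treatment, and age, strain, the deleted part of Cldn10 and the tooth and stage captured are not stated in the labels. Nothing in the labels says that the libraries came from separate mice. By Xist and Ddx3y, given below, KO9 read as male and KO1 and KO3 as female, so KO held more than 1 mouse. Between WT10 and WT5, and between KO1 and KO3, the spread behind the p-values may still be technical only. The values are normalized counts, sequencing depth is unknown, and the libraries summed to between 21006977 and 26856177.

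Ameloblasts secrete amelogenin, ameloblastin and enamelin, and the protease MMP20 trims them while enamel is laid down. The stratum intermedium is known for alkaline phosphatase and for Notch1, and it sends and receives signals across its contact with the ameloblasts. The bases before the start of the 3 matrix genes are shown because these genes were higher in ameloblasts in every prefix and had their smallest difference in the same prefix. They are the 250 bases upstream of the RefSeq start in GRCm38.p6, 5′ to 3′ on the strand of the gene. Capitals mark CCAAT or its reverse complement ATTGG. Amelx lies at chrX:169187210-169187459 on the minus strand, and Ambn and Enam at chr5:88455741-88455990 and chr5:88487725-88487974 on the plus strand.
Amelx: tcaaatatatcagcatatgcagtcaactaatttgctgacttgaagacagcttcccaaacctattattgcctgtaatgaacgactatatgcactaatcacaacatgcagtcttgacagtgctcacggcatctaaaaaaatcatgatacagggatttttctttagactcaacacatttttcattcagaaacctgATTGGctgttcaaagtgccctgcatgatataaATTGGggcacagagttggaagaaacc
Ambn: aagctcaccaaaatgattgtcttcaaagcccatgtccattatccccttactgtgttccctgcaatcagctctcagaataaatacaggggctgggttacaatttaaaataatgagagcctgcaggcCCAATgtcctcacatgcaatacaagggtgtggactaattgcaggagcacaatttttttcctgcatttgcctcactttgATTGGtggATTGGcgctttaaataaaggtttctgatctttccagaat
Enam: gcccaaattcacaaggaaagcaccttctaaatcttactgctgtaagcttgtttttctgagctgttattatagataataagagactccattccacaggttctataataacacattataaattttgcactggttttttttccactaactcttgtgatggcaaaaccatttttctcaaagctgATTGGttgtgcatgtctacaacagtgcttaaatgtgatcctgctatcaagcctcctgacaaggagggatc
The motif occurred 2 times before Amelx, 3 times before Ambn and 1 time before Enam, and 0 times in the same window before Mmp20. Of 32851 RefSeq windows of this length, 33.8% held it on either strand. TATAAA on either strand, held by 12.4% of the windows, occurred 1 time before Amelx, Enam and Mmp20 each and 0 times before Ambn.

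Whether the layer difference was smaller or larger in KO depended on the WT prefix and on how genes were chosen, so a loss of the difference was not shown. The gap of a gene is its layer difference measured from the median of all genes, -0.15, and counted positive in the gene's own direction. Genes whose mean over the 5 prefixes lay at least 1 log2 unit from that median were 1051 higher in ameloblasts and 1334 higher in stratum intermedium, 2385 in all. Their median gap was 2.22 in WT10, 0.40 in WT5, 1.65 in KO1, 1.14 in KO3 and 1.63 in KO9. WT10 had the widest gap and WT5 the narrowest, and all 3 KO prefixes lay between them. The median change of the gap, KO minus WT, was 0.25. It was 1.34 without WT10 and -0.52 without WT5, so the WT prefix kept set its direction. The choice of genes did so too. The change was -0.99 over genes chosen by the WT prefixes alone and 0.77 over genes chosen by the KO prefixes alone.

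**Figure D1:**
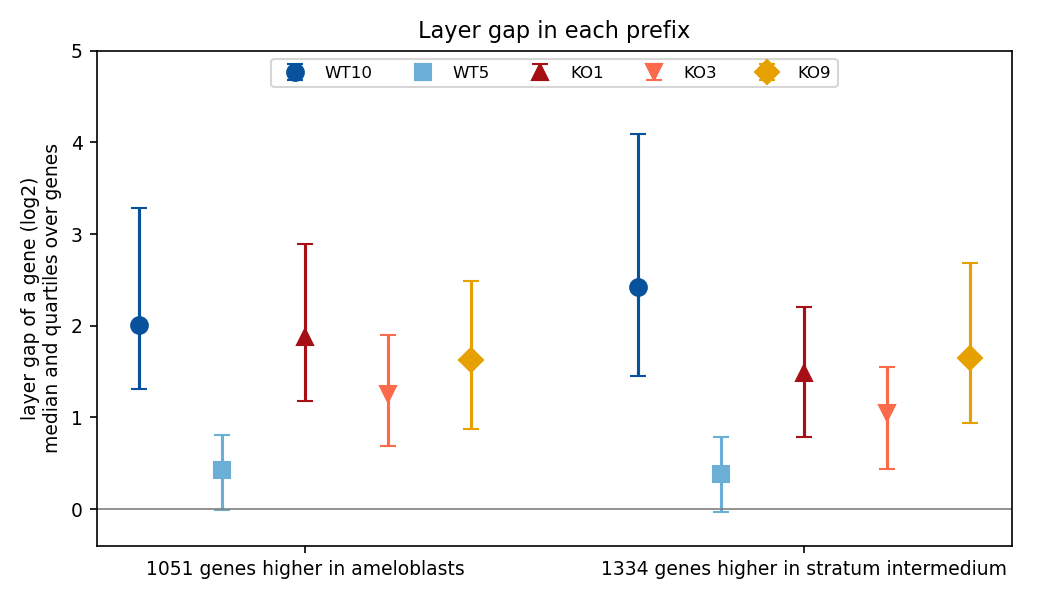
Layer gap on the log2 scale in each of 5 prefixes for genes higher in ameloblasts and for genes higher in stratum intermedium; points are medians over genes and bars the quartiles. In both gene groups WT10 is widest and WT5 narrowest, with the KO prefixes between them.

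The same order was found over all genes. The SD over genes of the layer difference was 1.73 in WT10, 0.62 in WT5, 1.36 in KO1, 0.89 in KO3 and 1.35 in KO9. Genes listed at 0 in the ameloblast table numbered 706 in WT10, 33 in WT5, 224 in KO1, 41 in KO3 and 420 in KO9, and in stratum intermedium 854, 36, 633, 109 and 210 in the same order. The library names also carry a group number, which the labels do not explain, and the prefixes with the smallest spread of each genotype, WT5 and KO3, share number 1. Within that number the gap of KO3 minus that of WT5 had a median of 0.77 over the 2385 genes. Within number 2, KO9 minus WT10 had a median of -0.46. Number 3 held KO1 alone. The part of genes at 0 or of the group number in the gap was not tested. KO1 and KO3 carried Xist and no Ddx3y transcripts, and the other 3 prefixes carried Ddx3y, so WT10, WT5 and KO9 read as male. Only KO prefixes read as female, so sex and genotype cannot be fully told apart. With sex as a covariate, where KO against WT rests on KO9, the median change of the gap was 0.37.

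At genes with a mean of at least 500 in both tables, 6376 in all, the layer differences of WT10 correlated across genes with those of the KO prefixes at r = 0.57 to 0.67. The KO prefixes correlated with each other at 0.64 to 0.71. WT5 correlated with the other 4 prefixes at 0.17 to 0.30. These are descriptions over genes, which are not independent replicates. The layer profile of WT10 was thus closer to the KO profiles than to that of WT5 by this measure.

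No gene passed a test of the layer difference between genotypes. With limma and Benjamini-Hochberg adjustment, 0 of 15567 genes (0.0%) had an adjusted p below 0.05, and the smallest adjusted p was 0.836. Without adjustment 802 genes (5.15%) had a p below 0.05, of which 237 (1.52%) had a narrower gap in KO and 565 (3.63%) a wider gap. KO was above WT in 486 of them (3.12%) and below in 316 (2.03%). In 22.4% of genes the 2 WT and 3 KO prefixes did not overlap, 10.9% with KO above WT and 11.5% with KO below WT. That was a narrower gap in KO for 8.43% of genes and a wider one for 14.0%. By the means alone 44.6% had a narrower gap. The direction of a gap was fixed here by the mean of all 5 prefixes, and these splits depend on that. Fixed by the WT prefixes alone, 643 of the 802 genes had a narrower gap and 159 a wider one, and fixed by the KO prefixes alone 40 and 762. The splits are therefore no sign of narrowing or widening. All genes below are named as not past the threshold, and words such as higher and lower describe the measured values. Less RNA per cell and fewer cells of a type cannot be told apart in captured tissue.

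Cldn10 (ENSMUSG00000022132, chromosome 14, from 118787908 to 118875489 in GRCm38) checked the labels. Its normalized count in ameloblasts was 600.1 in WT10, 752 in WT5, 280.1 in KO1, 408 in KO3 and 149 in KO9. In stratum intermedium it was 7257 in WT10, 2365 in WT5, 1003 in KO1, 387 in KO3 and 465 in KO9. Every KO library was below every WT library of its layer. The layer difference was -3.59 in WT10, -1.65 in WT5, -1.84 in KO1, 0.07 in KO3 and -1.64 in KO9, so Cldn10 was higher in stratum intermedium in 4 prefixes and near equal in KO3. The genotypes overlapped, since KO9 and WT5 had almost the same difference. The change from WT to KO was 1.49 (SE 0.74), with an adjusted p of 0.836 in limma. It was 0.52 without WT10, 2.46 without WT5, 0.89 without KO3 and 0.99 with sex as a covariate. Each value counts the whole gene, so reads from a part left by the deletion are included.

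The secreted matrix genes were higher in ameloblasts in every prefix. For Enam (ENSMUSG00000029286), the enamelin gene, the normalized count in ameloblasts was 86123 in WT10, 62932 in WT5, 405084 in KO1, 71853 in KO3 and 26559 in KO9. In stratum intermedium it was 8139 in WT10, 26828 in WT5, 17189.6 in KO1, 7868 in KO3 and 1612 in KO9. The count varied several-fold among libraries of 1 genotype, with KO1 highest and KO9 lowest in ameloblasts. The layer difference was 3.40 in WT10, 1.23 in WT5, 4.56 in KO1, 3.19 in KO3 and 4.04 in KO9. WT5 was lowest and WT10 lay among the KO prefixes, so the genotypes overlapped. The WT mean was 2.32 ± 1.54 (SD, n = 2), and the KO mean was 3.93 ± 0.69 (SD, n = 3). KO minus WT was 1.61 (SE 0.65), not past the threshold (limma, adjusted p = 0.836). It was 2.70 without WT10 and 0.53 without WT5.

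Amelx, the amelogenin gene, had layer differences of 3.60 in WT10, 1.47 in WT5, 3.86 in KO1, 3.22 in KO3 and 4.53 in KO9. Ambn, the ameloblastin gene, had 3.00 in WT10, 1.21 in WT5, 3.33 in KO1, 2.46 in KO3 and 3.07 in KO9. Mmp20 had 3.07 in WT10, 1.08 in WT5, 3.24 in KO1, 2.76 in KO3 and 4.26 in KO9. In all 3 genes WT5 stood lowest, and WT10 lay above KO3. Of the 12 secretory ameloblast genes, 11 had a higher layer difference in KO by the means, against 50.4% of all genes. In 2 (16.7%) the prefixes did not overlap, with KO above WT, against 10.9% of all genes. The median KO minus WT was 0.90, against 0.01 over all genes, and 0 members passed adjustment in limma. The list median was 1.73 without WT10 and 0.08 without WT5, where 6 of 12 were higher in KO. Without WT5 the change was 0.27 for Amelx, 0.35 for Mmp20 and -0.050 for Ambn, whose direction turned. Within each table the median change of the list was 0.39 in ameloblasts and -0.53 in stratum intermedium. Itgb6, an integrin subunit required for normal enamel, was 1 of the 2 apart, at 1.43 in WT10, 0.83 in WT5, 3.50 in KO1, 2.48 in KO3 and 1.78 in KO9. Sp6, a transcription factor of ameloblasts, was at 2.37 in WT10, 0.86 in WT5, 2.62 in KO1, 2.09 in KO3 and 3.02 in KO9 and overlapped.

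**Figure D2:**
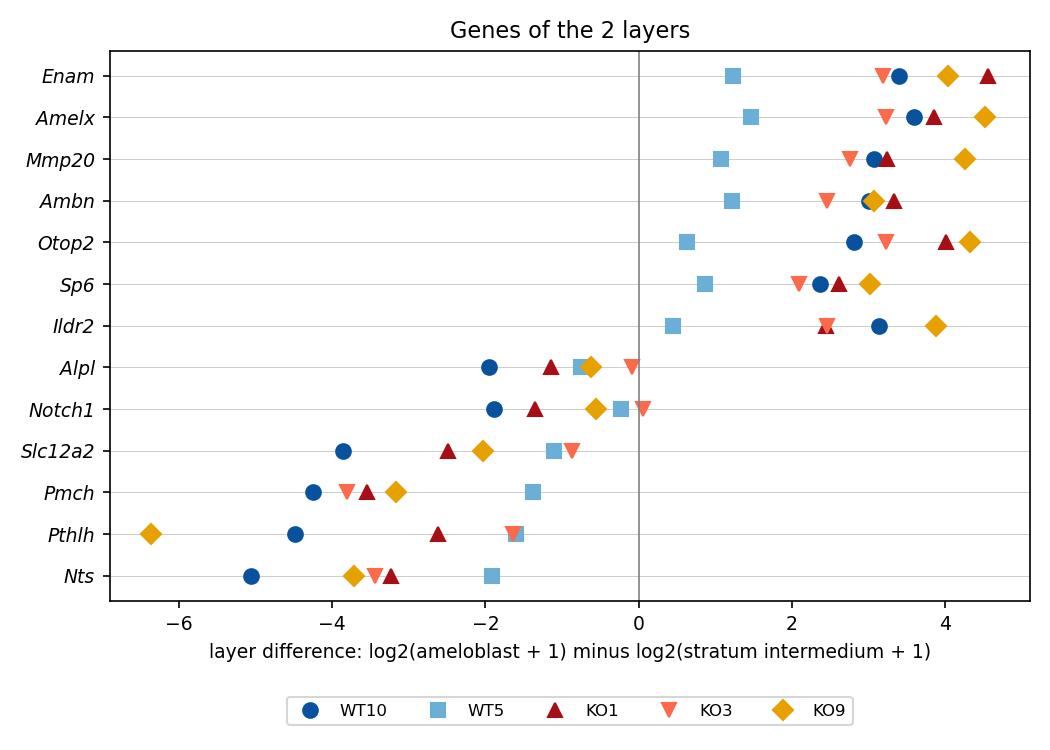
Layer difference on the log2 scale of 13 genes of either layer, 1 point for each prefix; positive values are higher in ameloblasts. For Enam, Amelx, Mmp20 and Ambn WT5 lies lowest and WT10 among the KO prefixes.

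Otop2, a proton channel gene, was among the 3 genes with the highest mean layer difference at a mean of at least 1000 in a table, with Enam and Amelx. Its layer difference was 2.81 in WT10, 0.64 in WT5, 4.01 in KO1, 3.23 in KO3 and 4.32 in KO9, with all KO prefixes above both WT prefixes (KO minus WT 2.13, SE 0.67). That value was 3.22 without WT10 and 1.04 without WT5. Nts, Pthlh and Pmch were the 3 highest in stratum intermedium. Nts encodes neurotensin and had -5.06 in WT10, -1.92 in WT5, -3.23 in KO1, -3.45 in KO3 and -3.72 in KO9. Pthlh encodes parathyroid hormone-related protein and had -4.48 in WT10, -1.59 in WT5, -2.62 in KO1, -1.64 in KO3 and -6.36 in KO9. Pmch encodes a hormone precursor and had -4.25 in WT10, -1.38 in WT5, -3.55 in KO1, -3.81 in KO3 and -3.16 in KO9. In Nts and Pmch the WT prefixes were the highest and the lowest, with KO between. In Pthlh KO9 was lowest.

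Maturation genes were less clearly layered. Of 14 measured, 4 were higher in ameloblasts and 2 in stratum intermedium by the 1 log2 unit rule, against 1051 and 1334 of all 15567 genes. In 11 the layer difference was higher in KO by the means, against 50.4% of all genes. In 4 (28.6%) the prefixes did not overlap, with KO above WT, against 10.9% of all genes. The list median of 0.73 was 0.47 without WT10, with 8 of 14 higher, and 0.96 without WT5. Klk4, the late enamel protease, was near the floor, with ameloblast counts of 11.3 in WT10, 43.7 in WT5, 79 in KO1, 52.8 in KO3 and 0 in KO9. Cnnm4, a magnesium transporter, had -1.51 in WT10, -1.05 in WT5, -0.35 in KO1, 1.11 in KO3 and 0.44 in KO9, so it was higher in stratum intermedium in both WT prefixes and in KO1, and higher in ameloblasts in KO3 and KO9. Cftr, the chloride channel, had 1.55 in WT10, 1.13 in WT5, 3.04 in KO1, 1.84 in KO3 and 2.83 in KO9. Slc26a1, an anion exchanger, had 1.28 in WT10, -0.09 in WT5, 2.34 in KO1, 1.97 in KO3 and 5.46 in KO9. All 3 had every KO prefix above both WT prefixes.

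Genes of the stratum intermedium did not mark that layer uniformly. Of 13 measured, 2 were higher there by the 1 log2 unit rule and 1, Krt14, was higher in ameloblasts. Over all 15567 genes these numbers were 1334 and 1051. Alpl, the tissue-nonspecific alkaline phosphatase, was at -1.96 in WT10, -0.76 in WT5, -1.14 in KO1, -0.09 in KO3 and -0.62 in KO9. It was near equal in KO3 and higher in stratum intermedium in the other prefixes. Notch1 was at -1.89 in WT10, -0.23 in WT5, -1.35 in KO1, 0.05 in KO3 and -0.55 in KO9, near equal in KO3. Slc12a2, a sodium, potassium and chloride cotransporter, was at -3.86 in WT10, -1.10 in WT5, -2.49 in KO1, -0.87 in KO3 and -2.04 in KO9. Krt14, a basal keratin, was at 1.48 in WT10, 0.47 in WT5, 1.15 in KO1, 1.32 in KO3 and 2.00 in KO9. Genotypes overlapped in all 4. By the means all 13 had a higher layer difference in KO, against 50.4% of all genes, with a list median of 0.74. For 8 of the 13 that was a narrower gap and for 5 a wider one. In 4 (30.8%) the prefixes did not overlap, with KO above WT, against 10.9% of all genes. The list median was 0.43 without WT10, with 9 of 13 higher, 1.17 without WT5 and 0.49 without KO3. The list median changed by 0.49 in ameloblasts and by -0.17 in stratum intermedium.

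Gja1, the connexin 43 gene that joins enamel organ cells by gap junctions, was on opposite sides of the gene-wide median in the 2 genotypes. Its layer difference was -0.34 in WT10, -0.77 in WT5, 0.34 in KO1, 0.99 in KO3 and 0.83 in KO9. Both WT prefixes were negative and all KO prefixes positive. The difference, KO minus WT, was 1.28 (SE 0.29), with an adjusted p of 0.836 in limma. Cdh1, the E-cadherin gene, had 1.46 in WT10, 0.19 in WT5, 1.96 in KO1, 1.52 in KO3 and 2.39 in KO9 and also did not overlap, narrowly so for KO3. Its change of 1.13 was 0.49 without WT5. Gja4, a connexin of blood vessels, had -2.41 in WT10, -0.80 in WT5, -1.57 in KO1, -1.50 in KO3 and -3.33 in KO9 and overlapped. Of 15 adherens and gap junction genes measured, 9 were higher in KO by the means, against 50.4% of all genes. In 3 (20%) the prefixes stood apart with KO above WT, against 10.9% of all genes. The list median of 0.13 was -0.17 without WT10 and 0.32 without WT5.

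Among the other claudins 10 of 23 were measured. In 7 the layer difference was higher in KO by the means, against 50.4% of all genes. In 4 (40%) the prefixes did not overlap, with KO above WT, against 10.9% of all genes. The median of 1.22 was 0.17 without WT10 and 0.64 without WT5. Cldn20 had 2.08 in WT10, 1.20 in WT5, 3.33 in KO1, 2.56 in KO3 and 2.63 in KO9. Cldn17 had -1.51 in WT10, -1.20 in WT5, 0.18 in KO1, 0.91 in KO3 and -0.10 in KO9. Cldn11, higher in stratum intermedium, had -3.41 in WT10, -0.55 in WT5, -2.07 in KO1, -2.99 in KO3 and -3.78 in KO9 and overlapped. Of 23 other tight junction genes, 15 were higher in KO by the means, with a median of 0.49 that was 0.13 without WT5. Prefixes stood apart with KO above WT in 6 (26.1%) and KO below in 1 (4.35%), against 10.9% and 11.5% of all genes. F11r, which encodes junctional adhesion molecule A, had -0.71 in WT10, -0.50 in WT5, 0.25 in KO1, 0.42 in KO3 and 0.10 in KO9. Marveld2, which encodes tricellulin, had -7.11 in WT10, -2.51 in WT5, 0.09 in KO1, -1.64 in KO3 and 0.10 in KO9, with a count of 0 in WT10 ameloblasts. Ildr2, an angulin that sits at tricellular contacts, had 3.14 in WT10, 0.45 in WT5, 2.45 in KO1, 2.46 in KO3 and 3.89 in KO9, where KO and WT10 overlapped.

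Desmosomes hold epithelial sheets together. Of 15 desmosome genes measured, 12 were higher in KO by the means, against 50.4% of all genes. Prefixes stood apart with KO above WT in 3 (20%) and KO below in 1 (6.67%), against 10.9% and 11.5% of all genes. Without WT10 only 4 of the 15 were higher, and the median went from 0.54 to -0.28. It was 1.11 without WT5, 0.91 without KO1 and 0.23 without KO3. Evpl, the envoplakin gene, had 1.72 in WT10, 1.52 in WT5, 0.19 in KO1, 1.76 in KO3 and 1.49 in KO9, with KO1 alone well below the other 4 prefixes. Pkp4, a plakophilin, had -1.97 in WT10, -1.03 in WT5, -1.98 in KO1, -0.57 in KO3 and -1.39 in KO9. Perp, a desmosomal tetraspan membrane gene, was among the 6 widened genes with the smallest p.

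Those 6 were picked with the 6 narrowed genes among genes at least 1 log2 unit from the median, with prefixes of the 2 genotypes apart. Measured from the median of all genes, the 6 widened genes had WT means of 0.27 to 0.90, under the limit of 1, and KO means of 1.54 to 2.35. They passed the limit only through KO, and 5 of the 6 narrowed genes passed it only through WT. Their differences were thus part of the choice and are given as descriptions, with no test. Fzd3 (ENSMUSG00000007989, chromosome 14, from 65192449 to 65262463 in GRCm38) encodes a Wnt receptor. In ameloblasts its count was 4467 in WT10, 2030.0 in WT5, 4543 in KO1, 5409 in KO3 and 7026 in KO9. In stratum intermedium it was 2992 in WT10, 2019 in WT5, 1268 in KO1, 1666 in KO3 and 1934 in KO9. In ameloblasts the KO libraries were above both WT libraries, narrowly so for KO1, and in stratum intermedium they were below both. Its mean layer difference in WT was 0.29 ± 0.40 (SD, n = 2), and in KO it was 1.80 ± 0.09 (SD, n = 3). KO minus WT was 1.51.

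Shh, the hedgehog ligand made by dental epithelium, had a layer difference of 1.24 in WT10, 0.20 in WT5, 2.08 in KO1, 2.02 in KO3 and 2.5 in KO9. Perp had 0.65 in WT10, 0.38 in WT5, 1.33 in KO1, 1.58 in KO3 and 1.49 in KO9. Cpm, a membrane carboxypeptidase gene, had 0.40 in WT10, -0.17 in WT5, 1.54 in KO1, 1.62 in KO3 and 1.00 in KO9. Cipc, a gene of the circadian clock, had 0.46 in WT10, -0.03 in WT5, 1.83 in KO1, 1.66 in KO3 and 1.60 in KO9. Cntnap2, a neurexin-family gene, had 1.01 in WT10, 0.48 in WT5, 1.71 in KO1, 2.23 in KO3 and 1.95 in KO9 in a locus that overlaps 28 other annotated genes. All 5 were higher in ameloblasts in every KO prefix. Of 12 hedgehog genes measured, 4 (33.3%) stood apart with KO above WT and 2 (16.7%) with KO below, against 10.9% and 11.5% of all genes. Hhip, which binds the ligand at the cell surface, had -3.68 in WT10, -2.05 in WT5, -2.29 in KO1, -4.22 in KO3 and -3.22 in KO9 and overlapped.

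Of the 6 narrowed genes 5 were higher in stratum intermedium by their mean. Enpp2 (ENSMUSG00000022425, chromosome 15, from 54838901 to 54952892 in GRCm38) encodes autotaxin, which makes lysophosphatidic acid. In ameloblasts its count was 2132 in WT10, 2626 in WT5, 9829 in KO1, 13167 in KO3 and 8199 in KO9. In stratum intermedium it was 27670.0 in WT10, 9404 in WT5, 19608 in KO1, 7973 in KO3 and 13403 in KO9. The KO libraries were above the WT libraries in ameloblasts and overlapped them in stratum intermedium. The layer difference was -3.70 in WT10, -1.84 in WT5, -1.0 in KO1, 0.72 in KO3 and -0.71 in KO9. KO minus WT was 2.44, 1.51 without WT10 and 3.37 without WT5.

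Cdh6, a classical cadherin gene, had -3.79 in WT10, -1.34 in WT5, -0.91 in KO1, 0.64 in KO3 and -0.67 in KO9. Its change was 1.93 within ameloblasts and -0.32 within stratum intermedium. Lck, a kinase of T cells, had -3.99 in WT10, -3.20 in WT5, -1.22 in KO1, 0.55 in KO3 and -0.28 in KO9 at counts of at most 154.5. Its ameloblast counts were only 8.8 in WT10 and 7.2 in WT5. Gm43428 had -6.47 in WT10, -2.70 in WT5, -1.01 in KO1, 1.24 in KO3 and 1.21 in KO9 and 1700003E16Rik had -4.32 in WT10, -3.81 in WT5, 0.18 in KO1, 0.34 in KO3 and -0.64 in KO9, both with ameloblast counts under 5 in WT10 and WT5. Gm6565, a processed pseudogene, had 6.75 in WT10, 6.92 in WT5, -6.67 in KO1, 0.01 in KO3 and -0.57 in KO9, and its count was 0 in both WT stratum intermedium libraries and in KO1 ameloblasts. The layer differences of these last 3 genes rest on counts at or near 0, and those of Lck in WT on ameloblast counts under 10. Lck, Gm43428 and 1700003E16Rik reached 10 in ameloblasts only in KO libraries, and Gm6565 reached it in stratum intermedium only in KO libraries. These genes were thus listed for that layer only through KO.

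**Figure D3:**
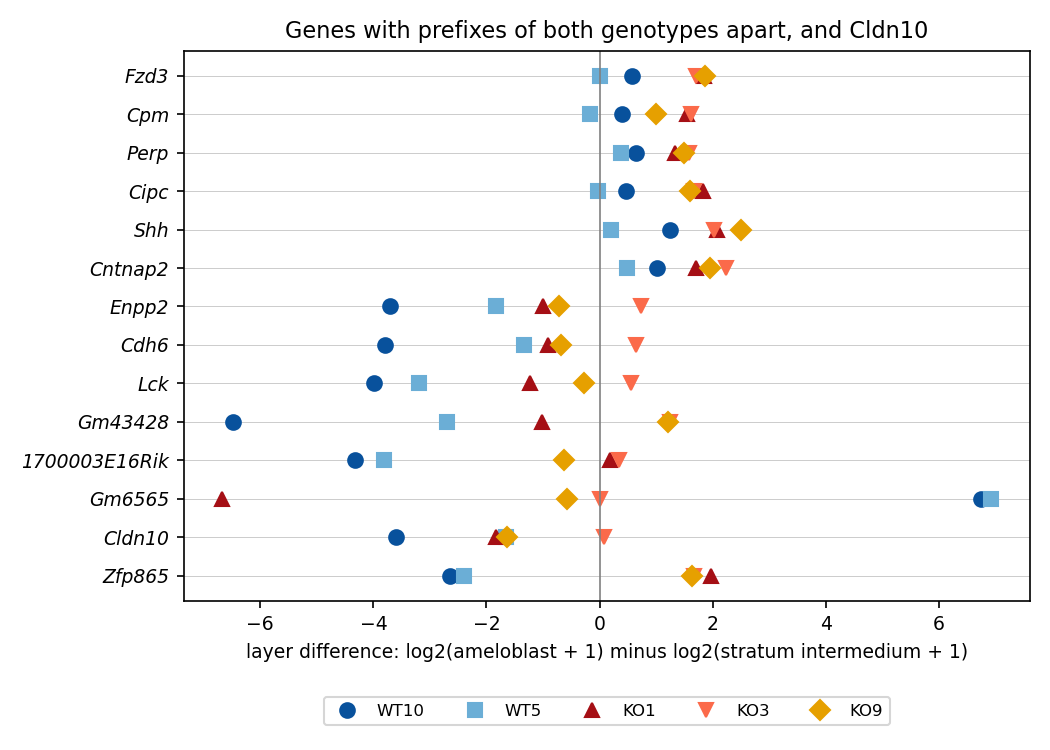
Layer difference on the log2 scale of the 6 widened genes (Fzd3 to Cntnap2), the 6 narrowed genes (Enpp2 to Gm6565), Cldn10 and Zfp865, 1 point for each prefix. Cldn10 overlaps between genotypes, and for the other genes WT and KO points stand apart, as the choice of these genes required for the widened and narrowed ones.

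Which genes hold these 12 places depended on the variance model of limma. With the variance tied to the layer difference, 4 of the 6 narrowed and 0 of the 6 widened genes were the same. With no trend, 4 and 1 were the same. Each of the 3 models left 0 genes past adjustment.

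Zfp865, a zinc finger gene, had the smallest p of all genes and was named after its values were seen. Its locus (ENSMUSG00000074405, chromosome 7, from 5020376 to 5036768 in GRCm38) overlaps 4 annotated genes. In ameloblasts its count was 170.2 in WT10, 208 in WT5, 108 in KO1, 197 in KO3 and 133 in KO9. In stratum intermedium it was 1068 in WT10, 1108 in WT5, 26.8 in KO1, 61.3 in KO3 and 42 in KO9. The ameloblast libraries overlapped, while the WT stratum intermedium libraries were far above the KO ones. The layer difference was -2.64 in WT10, -2.41 in WT5, 1.96 in KO1, 1.67 in KO3 and 1.64 in KO9, KO minus WT 4.28 (SE 0.53). Its unadjusted p was 7.89e-05 and its adjusted p 0.836 in limma. The overlapping gene Ccdc106 had stratum intermedium counts of 365 in WT10, 129 in WT5, 418 in KO1, 323 in KO3 and 354 in KO9, with WT5 lowest. Zfp784, also overlapping, had 244 in WT10, 306 in WT5, 100.1 in KO1, 171 in KO3 and 168 in KO9, so every KO library was below both WT libraries, as for Zfp865. Gm44973, the third one measured, had counts of 32.1 to 50.7 that overlapped. Whether reads of these genes enter the count of Zfp865 was not tested.

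**Figure D4:**
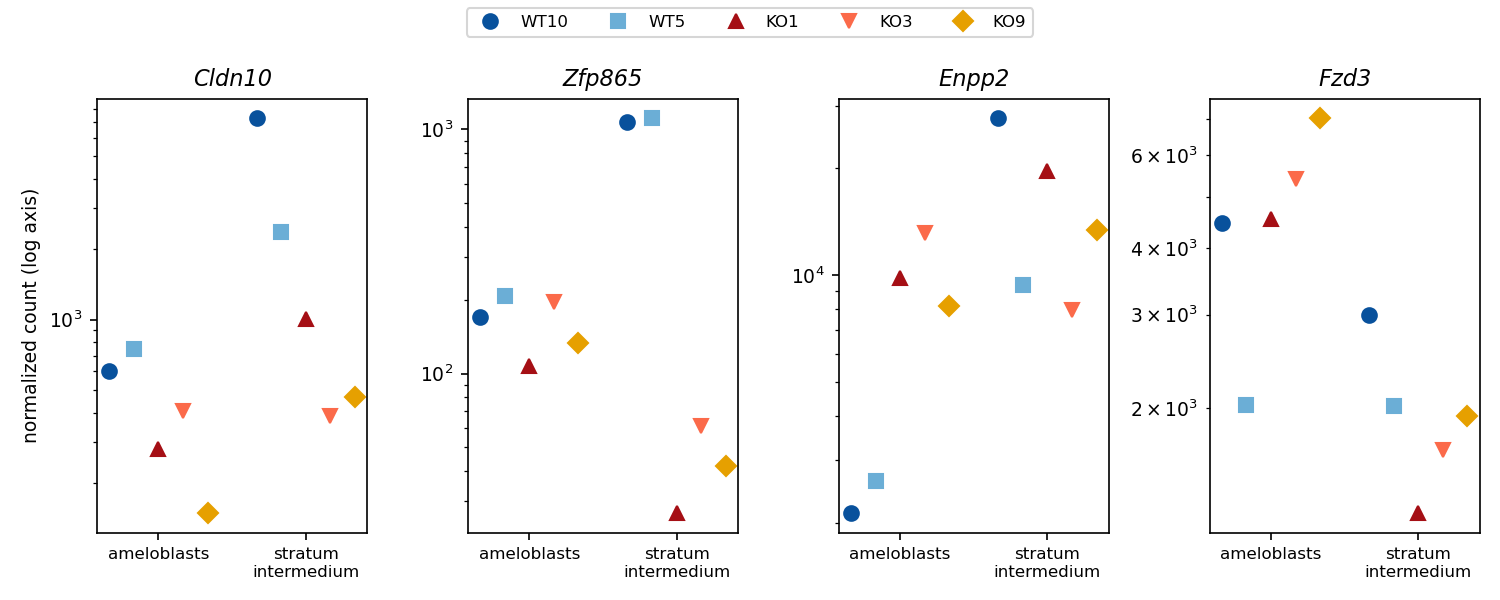
Normalized counts on a log axis of Cldn10, Zfp865, Enpp2 and Fzd3 in the 5 ameloblast and 5 stratum intermedium libraries, 1 point for each library. Zfp865 differs by genotype in stratum intermedium and Enpp2 in ameloblasts.

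Notch ligands and receptors act between touching cells. Of 18 Notch pathway genes measured, 15 were higher in KO by the means, against 50.4% of all genes, with a median of 0.50. It was 0.37 without WT10 and 0.70 without WT5, each with 12 of 18 higher. Prefixes stood apart with KO above WT in 3 (16.7%), against 10.9% of all genes. Jag1, a Notch ligand, had -0.22 in WT10, -0.21 in WT5, 0.62 in KO1, 0.77 in KO3 and 1.45 in KO9, negative in both WT prefixes and positive in all KO prefixes. Dll4, another ligand, had -2.92 in WT10, -0.58 in WT5, -1.31 in KO1, -0.75 in KO3 and -7.16 in KO9, with a count of 0 in KO9 ameloblasts. Mfng, a glycosyltransferase that modifies Notch, had -2.30 in WT10, -0.75 in WT5, -2.69 in KO1, -2.16 in KO3 and -1.13 in KO9. Among 12 dental epithelial transcription factors, 10 were higher in KO by the means, against 50.4% of all genes. Their median of 0.69 was 0.37 without WT10 and 0.57 without WT5. Of the 12, 2 (16.7%) stood apart with KO above WT, against 10.9% of all genes. Trp63, the p63 gene of epithelial stem and basal cells, had -1.05 in WT10, -0.56 in WT5, -0.04 in KO1, 0.54 in KO3 and 0.39 in KO9. Satb1, a chromatin organizer, had 1.72 in WT10, 0.44 in WT5, 1.70 in KO1, 1.49 in KO3 and 2.30 in KO9 and overlapped.

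Markers of blood and bone cells went the other way. Hbb-bs, an adult beta-globin gene, had ameloblast counts of 16883 in WT10, 97583 in WT5, 5199 in KO1, 10837 in KO3 and 6059.7 in KO9. In stratum intermedium they were 8865 in WT10, 73684 in WT5, 9787 in KO1, 19972 in KO3 and 13223 in KO9. WT5 held the most globin in both layers. The layer difference was 0.93 in WT10, 0.41 in WT5, -0.91 in KO1, -0.88 in KO3 and -1.13 in KO9, positive in WT and negative in KO. It changed by -1.64 (SE 0.23), with an adjusted p of 0.836 in limma. Hbb-bt, its near-identical neighbour, had 0.79 in WT10, 0.49 in WT5, -0.94 in KO1, -1.01 in KO3 and -1.44 in KO9, and the reads of these copies may be split between them. All 5 measured red blood cell genes were lower in KO by the means, against 49.6% of all genes. Of these, 4 (80%) stood apart with KO below WT, against 11.5% of all genes. The list median was -1.39, and -1.68 to -1.10 without any 1 prefix. Alas2, of heme synthesis in red cells, had -0.91 in WT10, -0.11 in WT5, -0.56 in KO1, -0.48 in KO3 and -0.93 in KO9 and overlapped. The red blood cell list made up 0.244% (WT10) and 1.28% (WT5) of ameloblast libraries in WT, 0.0814% to 0.144% in KO, and 0.146% to 0.911% of stratum intermedium libraries.

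All 9 osteoclast markers were lower in KO by the means, against 49.6% of all genes. Their median of -0.82 was -0.19 without WT10 and -1.43 without WT5. Of the 9, 3 (33.3%) stood apart with KO below WT, against 11.5% of all genes. Acp5, tartrate-resistant acid phosphatase, had 1.03 in WT10, -0.26 in WT5, -0.86 in KO1, -0.61 in KO3 and -0.42 in KO9. Dcstamp, needed for osteoclast fusion, had 0.77 in WT10, -0.36 in WT5, -0.79 in KO1, -1.18 in KO3 and -0.59 in KO9. Itgb3, an integrin subunit, had 1.17 in WT10, 0.09 in WT5, 0.07 in KO1, 0.05 in KO3 and -0.01 in KO9. WT10 alone was clearly positive in all 3. Of 10 leukocyte markers 9 were lower in KO by the means, 6 (60%) apart with KO below and 1 (10%) with KO above. Of 12 fibroblast markers 11 were lower, 1 (8.33%) apart with KO below. Over all genes 11.5% stood apart with KO below and 10.9% with KO above. Odontoblast and pulp markers summed to 4.91% to 10.2% of the ameloblast libraries and 4.0% to 11.4% of the stratum intermedium libraries. The part of these other cells in the layer differences was not tested.

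All 45 ribosomal protein genes were lower in KO by the means, against 49.6% of all genes. Of them 32 (71.1%) stood apart with KO below WT, against 11.5% of all genes. The changes were small, with a median of -0.37. Leaving out any 1 prefix kept all 45 below, with medians of -0.50 to -0.24. Rplp2 had 0.05 in WT10, 0.56 in WT5, -0.31 in KO1, -0.37 in KO3 and -0.45 in KO9. Rpl30 had 0.45 in WT10, 0.45 in WT5, 0.13 in KO1, 0.12 in KO3 and -0.04 in KO9. Rpl14 had 0.64 in WT10, 0.11 in WT5, 0.34 in KO1, -0.12 in KO3 and -0.08 in KO9 and overlapped. The list median changed by -0.35 in ameloblasts and 0.01 in stratum intermedium. Genes of 1 complex are not replicates of a condition.

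Other lists gave less. Endothelial and cell cycle genes were higher in stratum intermedium, 10 of 10 and 13 of 17 by the 1 log2 unit rule, against 1334 of all 15567 genes. Their median KO minus WT was -0.26 and -0.16. Without WT5 both medians turned, to 0.57 and 0.40, and without WT10 they were -1.25 and -1.02. Of 20 genes of protein folding in the endoplasmic reticulum, 17 were higher in KO by the means, 4 (20%) apart with KO above and 2 (10%) below. Their median of 0.45 was 0.20 without WT5. Hemidesmosome and laminin genes were higher in KO in 8 of 9, with 2 (22.2%) apart with KO above. That median of 0.60 was also 0.20 without WT5. Over all genes 50.4% were higher in KO by the means, 10.9% stood apart with KO above and 11.5% with KO below. Skeletal muscle, Schwann cell, odontoblast and keratinizing epithelium lists had 0 members apart in either direction, against 22.4% of all genes.

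**Figure D5:**
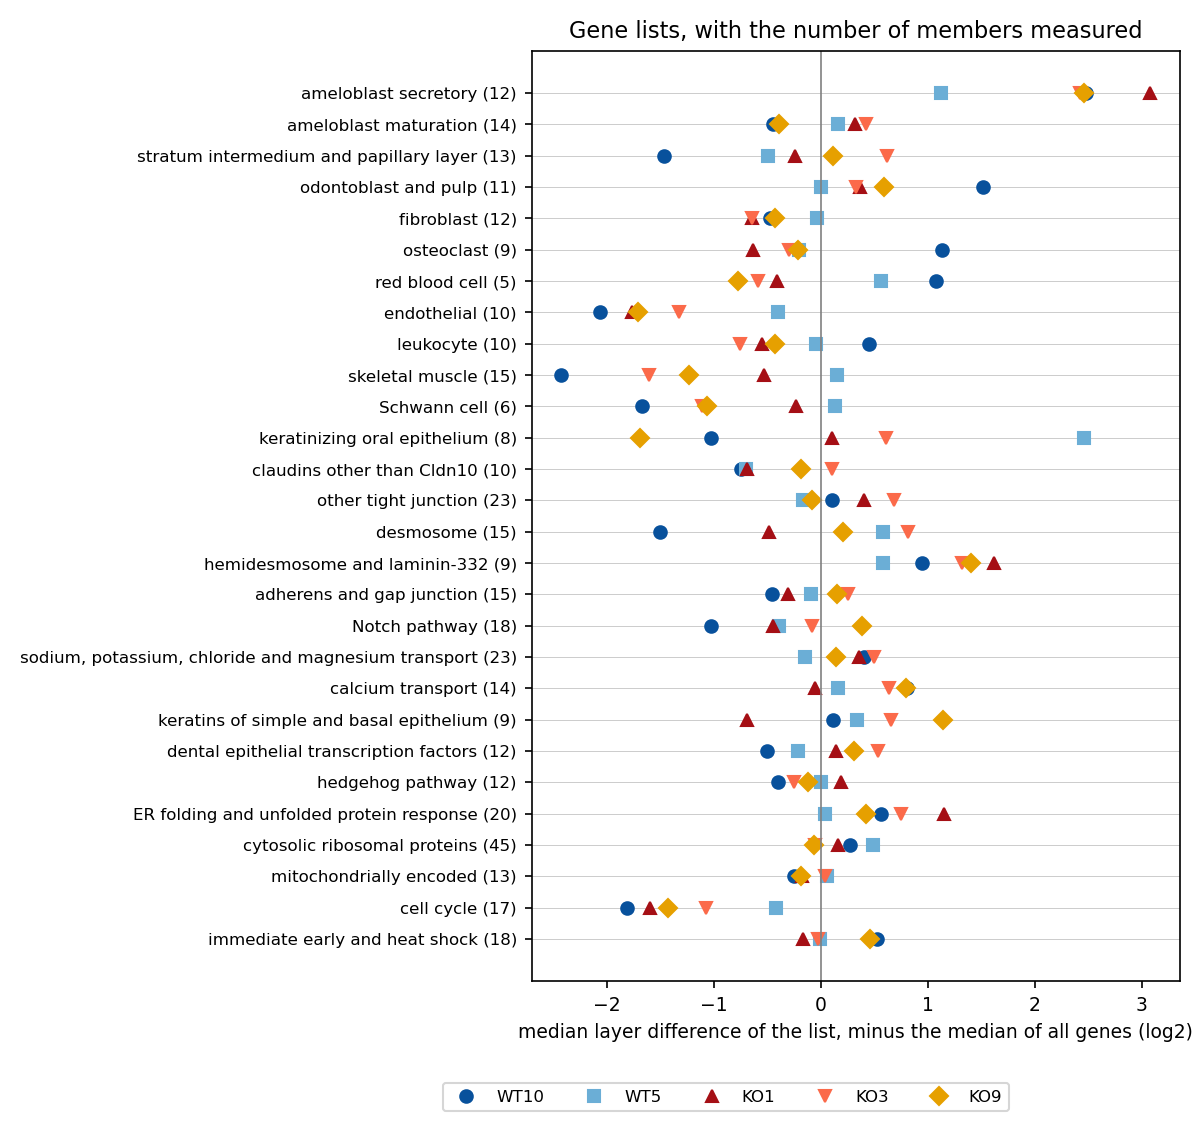
Median layer difference of each of 28 gene lists, measured from the median of all genes on the log2 scale, with 1 point for each prefix and the number of measured members in brackets. In the red blood cell list both WT prefixes lie above 0 and all 3 KO prefixes below.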

How the data were processed

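The signal values are normalized counts per gene, deposited as 1 table for each layer that the labels name as a normalized matrix. The names of both also read noOutlier, so other libraries may have been left out before deposit. What was left out is unknown here. Per the submitters' processing notes reads were handled on GRCm38 by STAR 2.5.2b, featureCounts, Picard 2.8.1, FastQC and DESeq. The tables were normalized separately, so layer differences were compared between genotypes and not against 0. Columns were matched by library name, with 0 left unused. Layers of 1 prefix deviated together from their group means (r = 0.31 in WT, 0.26, 0.22 and 0.20 in KO1, KO3 and KO9) and were paired by prefix, although the replicate numbers in the titles pair the KO libraries otherwise.

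The layer difference, with a pseudocount of 1, was fitted with limma 3.58.1 in R 4.3.3 (KO minus WT, 2 against 3, two-sided, Benjamini-Hochberg). The smallest exact permutation p at this size is 0.1, so none was used. The variance model was changed after results had been seen. The first fit, with limma's default trend over the mean layer difference, gave 0 calls (smallest adjusted p 0.263, 747 genes at an unadjusted p under 0.05) and did not recover changed genes in simulated data. A fit with no trend gave 0 calls (0.619, 708), and the trend over the mean log2 level used here gave 0 (0.836, 802). The plan named a limma trend without saying over what. The change altered p-values, standard errors and the 12 genes picked by p.

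The members and lists were chosen with earlier results of these data known. The rule named Cldn10, genes past adjustment, the 6 narrowed and 6 widened genes with the smallest p (at least 1 log2 unit from the median, prefixes apart), the 3 highest in each layer, 3 members of each list by gap or p, and 7 genes for their role. Of 99 such genes, Zfp865 included, 58 are described, and 41 stand only in the counts of their lists. Which lists to describe by gene was decided after their values were seen. Alternatives were other pseudocounts, filters, scalings, variance models, pairings, covariates (library group, sex), gene choices and leaving out each prefix. The variance models and the list medians under alternatives were added after the data were seen. Promoter sequences are from RefSeq. Positions are from GENCODE for GRCm38. Figures used matplotlib 3.10.9.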

Additional observations from a re-analysis of the deposited data

Results flagged for a closer look

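In 9 of the 58 genes described, the layer difference lay on one side of the gene-wide median in both WT prefixes and on the other side in all 3 KO prefixes. A further 4 such genes were among the 41 given only in list counts. None of the 13 had an adjusted p below 0.05 in limma, and this split itself was not tested. Apart from Hbb-bt, the genes described here were named for the smallest p of a list or of all genes. The naming thus favoured such a split, and its share over all genes was not counted, so these counts are no result about the genes. KO minus WT was 4.28 for Zfp865, 1.69 for Cldn17, 1.28 for Gja1, 1.16 for Jag1, 1.10 for Trp63 and 0.86 for F11r. It was -1.77 for Hbb-bt, -1.64 for Hbb-bs and -0.68 for Rplp2.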

How the results depend on the processing

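The count of genes past adjustment was 0 under every planned and added alternative except without WT5, where 2 passed (adjusted p 0.0417 in limma). These were Tcap and Depp1, named after their values were seen, both at 0 in WT10 ameloblasts. Leaving out 1 prefix at a time, the counts of calls ran from 0 to 2, genes at an unadjusted p under 0.05 from 477 to 1867, the median gap change from -0.52 to 1.34, and the KO minus WT spread over genes from -0.53 to 0.58, against 0.02 with all prefixes. Genes at an unadjusted p under 0.05 numbered 434 at a mean of at least 500, 412 with no replicate block and 406 with the replicate block by title number, against 802. Choosing the layer genes by the WT prefixes alone gave a gap change of -0.99. Of 20 alternatives of the gap change, 18 were above 0 and 2 below, without WT5 and with genes chosen by the WT prefixes. Changing the pairing leaves group means as they are, so those alternatives returned the main value of 0.25 and could not differ. The count is therefore no sign of a stable direction. Among the 58 genes, leaving out 1 prefix reversed KO minus WT for 15, with ranges of -1.55 to 1.59 for Nts, -1.94 to 0.94 for Pthlh, -2.13 to 0.74 for Pmch, -0.050 to 1.74 for Ambn, -0.38 to 1.28 for Notch1, -0.70 to 2.07 for Slc12a2 and -0.54 to 0.25 for Alas2. The others ran -2.40 to 0.46 for Cldn11, -0.21 to 2.48 for Ildr2, -0.78 to 0.0061 for Evpl, -0.28 to 0.66 for Pkp4, -1.33 to 0.28 for Gja4, -2.49 to 0.72 for Dll4, -1.24 to 0.31 for Mfng and -1.19 to 0.44 for Hhip. Nts also reversed with quantile normalization (-0.033) and with sex as a covariate (-0.23). Klk4 (-0.076) and Mfng (0.40) reversed with sex, and Pthlh with library weights (0.25). With the library group as a covariate Nts (-0.095) and Evpl (0.0061) reversed. For a given gene that fit gave the same KO minus WT as leaving out KO1, which is alone in its group, so it is no separate check of these genes. The median gap change was 0.14 with the group and 0.081 without KO1. The cause of the reversals was not tested. Read depth is unknown, so what it limits cannot be stated.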
